A study of Homo sapiens with 13 samples.

Results

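The listed starts of microRNA genes that carried a histone mark peak were examined in TE-7 cells, an established line of human esophageal epithelial cells. The treatment was interleukin-13 (IL-13, a cytokine of allergic inflammation). A start was taken as a member when its gene symbol began with MIR and a digit, or with MIRLET, in the deposited peak table of any of 3 histone marks. Host transcripts whose symbols end in HG were left out. This gave 455 microRNA starts of 18038 marked starts in all: 432 of 17197 with H3K27Ac, 344 of 16684 with H3K9Ac and 286 of 15632 with H3K4me3.

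RNA was sequenced from cells with 100 ng/ml IL-13 for 2, 6 and 24 hr and from control cells at 2, 6 and 24 hr. Chromatin was precipitated for each mark from cells with 100 ng/ml IL-13 for 6 hr and from control cells at 6 hr. All cells shared the line and a medium of RPMI with 5% fetal calf serum, and each of these 12 groups was 1 library. For each mark the authors compared a pair of libraries, named here library 1 and library 2. Neither the labels nor the table headers say which of them was treated with IL-13, and library 1 need not be the same treatment in each mark. No direction with IL-13 is therefore given for any peak.

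A microRNA is a short RNA cut from a longer primary transcript by Drosha and then Dicer, and loaded into an Argonaute protein. It represses messenger RNAs that pair with its seed, the bases at positions 2 to 8 of its 5′ end. Some microRNAs lie inside protein-coding genes and share their transcripts, and others have promoters of their own, often as clusters on 1 transcript. The starts used here are those of the listed microRNA genes, 1268 of 1307 of which were at most 1000 bp long. Such a start need not be where the primary transcript begins. H3K4me3 and H3K9Ac mark active promoters, whereas H3K27Ac marks active promoters and enhancers. In stratified epithelium the miR-200 family, miR-205 and miR-203 are known as restraints on mesenchymal genes or on the stem-cell programme.

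Sequences of the microRNAs that the results turn on are shown first, from the RefSeq table of build GRCh38.p14, with the seed in capitals. A mature sequence was found there for 410 of the 455 marked starts. The epithelial microRNAs, shown because the levels at their starts are described first below, comprise miR-205, miR-203a and 2 seed groups of the miR-200 family.
miR-205-5p: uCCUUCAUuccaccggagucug
miR-203a-3p: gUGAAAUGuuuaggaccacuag
miR-200b-3p: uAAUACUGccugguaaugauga
miR-200c-3p: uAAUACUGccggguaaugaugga
miR-429: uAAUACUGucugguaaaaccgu
miR-200a-3p: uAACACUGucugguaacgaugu
miR-141-3p: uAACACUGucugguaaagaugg
Members of the growth-related miR-17 and let-7 families are shown because 1 seed, AAAGUGC or GAGGUAG, was marked at some loci and not at others.
miR-17-5p: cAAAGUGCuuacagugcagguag
miR-20a-5p: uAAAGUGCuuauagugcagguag
miR-106b-5p: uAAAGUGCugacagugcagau
miR-93-5p: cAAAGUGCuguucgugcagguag
let-7i-5p: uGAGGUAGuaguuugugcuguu
let-7e-5p: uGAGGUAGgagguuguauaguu
The next are shown because a peak at their start differed by 2-fold or more between the libraries of a mark, or, for miR-3650, because the RNA of the gene around it differed with IL-13.
miR-3973: aCAAAGUAcagcauuagccuuag
miR-125b-5p: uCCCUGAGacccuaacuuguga
miR-181a-5p: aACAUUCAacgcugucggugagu
miR-181b-5p: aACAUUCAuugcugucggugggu
miR-4453: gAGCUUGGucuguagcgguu
miR-148a-3p: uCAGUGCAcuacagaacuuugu
miR-147b-3p: gUGUGCGGaaaugcuucugcu
miR-3650: aGGUGUGUcuguagagucc

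The cells expressed all 8 squamous markers and all 4 general epithelial markers at 1 RPKM (reads scaled to transcript length and to the library's total) or more in at least 1 library of each time. KRT5, a keratin of basal squamous cells, had 1528 RPKM with IL-13 and 1729 RPKM in the control at 6 hr, and 1323 and 2200 RPKM at 24 hr. The squamous markers moved in different directions. SOX2, a squamous transcription factor, was past 2-fold at each time, with 26.68, 37.68 and 105.2 RPKM with IL-13 at 2, 6 and 24 hr, and 10.08, 16.41 and 49.18 RPKM in the controls. KRT14, the partner keratin of KRT5, had 136.7 RPKM with IL-13 and 287 RPKM in the control at 24 hr. KRT4, a keratin of upper layers, had 0.61 RPKM with IL-13 and 1.38 RPKM in the control at 6 hr. The other 5 stayed under 2-fold. None of 5 leukocyte markers reached 1 RPKM. Of 4 fibroblast markers, COL1A1 was above 1 RPKM in every library, with 3.31 RPKM with IL-13 and 3.89 RPKM in the control at 24 hr. THY1 had 0 RPKM with IL-13 and 1.09 RPKM in the control at 2 hr, and COL1A2 and PDGFRB stayed below 1 RPKM. Of 3 endothelial markers, VWF alone reached 1 RPKM, with 4.21 RPKM with IL-13 and 0.94 RPKM in the control at 24 hr. The control at 2 hr held brain transcripts that were near 0 in the other libraries: SNAP25 had 0 RPKM with IL-13 and 3.57 RPKM in the control at 2 hr, and GFAP had 0 and 2.06 RPKM. Of 17225 genes above 0 in the controls at 2 and 6 hr, 359 had identical RPKM, against 0 in each of the other 14 pairs of RNA libraries. Among the marked microRNAs, 14 of the 51 above 0 in those controls were identical, for example MIR3917 at 13.34 RPKM in both. The part of these features in any value below was not tested.

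Marked microRNA starts carried promoter marks less often than other marked starts, and H3K27Ac about as often. H3K27Ac was listed at 94.9% of microRNA starts and 95.3% of other starts, whereas H3K4me3 was listed at 62.9% and 87.3%. All 3 marks met at 268 microRNA starts, which is 58.9%, against 84.4% of the 17583 other starts. H3K27Ac without H3K4me3 was found at 156 microRNA starts, 34.3%, and at 10.5% of other starts. For 98 microRNA starts, 21.5%, H3K27Ac was the only mark listed, against 5.46% of other starts. These are counts of listed starts in 1 pair of libraries per mark, with no replicate, so the shares are a description. A listed microRNA start can lie downstream of its promoter, so the shares are not those of microRNA promoters.

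**Figure D1:**
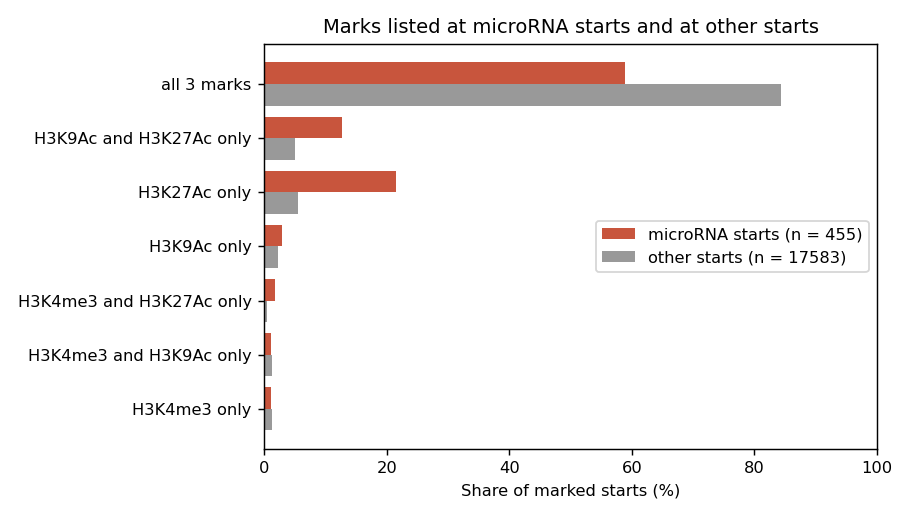
The share of marked starts (x axis, %) is shown for each combination of marks (y axis), for 455 microRNA starts and 17583 other starts. H3K27Ac alone took 21.5% of microRNA starts and 5.46% of other starts, and all 3 marks took 58.9% and 84.4%.

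The RNA tables held 1307 microRNA symbols, of which 458, or 35.0%, had a marked start. Marking was more frequent near the start of another gene. Among 1268 microRNA genes of at most 1000 bp, 83.3% of the 132 within 1 kb of another start were marked, and 73.9% of the 157 at 1 to 5 kb. The share was 35.1% at 5 to 20 kb, 19.0% at 20 to 100 kb and 17.4% over 100 kb. H3K4me3 dropped off most, to 4.03% at 20 to 100 kb, where H3K27Ac was still listed at 16.3%. A peak was listed at every start it was assigned to, and starts that shared a peak lay up to 10401 bp apart, so a start near another gene can carry that gene's peak.

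**Figure D2:**
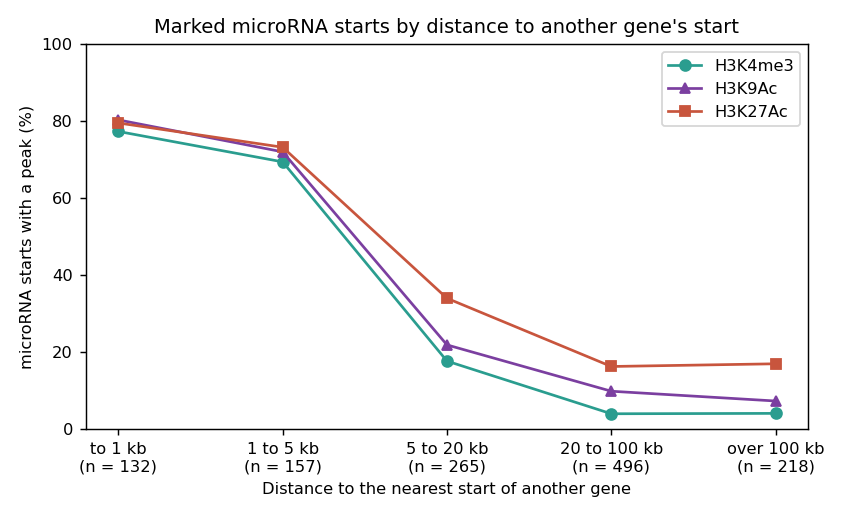
The share of microRNA starts with a peak (y axis, %) is shown by distance to the nearest start of another gene (x axis), for the 3 marks. It was 77.3% to 80.3% within 1 kb, and over 100 kb it was 17.0% for H3K27Ac, 7.34% for H3K9Ac and 4.13% for H3K4me3.

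Of the 455 marked starts, 237 lay inside a gene on the same strand, 40 inside a gene on the opposite strand alone, and 178 in no gene of the RNA tables. These tables give the bounds of each gene, so exons and introns are not told apart here. The genes around marked microRNAs were more highly expressed: the same-strand gene had a median of 9.92 RPKM with IL-13 and 9.95 RPKM in the control at 6 hr for 234 marked microRNAs. For 362 unmarked microRNAs it had 3.07 and 2.99 RPKM. At over 5 kb from any other start, 15.0% of 113 microRNAs were marked where that gene had under 0.1 RPKM in the control at 6 hr. The share was 34.1% of 41 at 0.1 to 1 RPKM, 26.7% of 135 at 1 to 10 RPKM and 28.7% of 160 at 10 RPKM or more. It was thus lowest around genes under 0.1 RPKM and did not rise steadily above that.

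MIR205 was among the 5 most strongly marked microRNA starts of each mark. It lies on chromosome 1 at position 209605478 of hg19, 3310 bp downstream of the start of MIR205HG, the transcript that contains it. The peaks at MIR205 were shared with that start. Its level, the authors' rescaled read level of the peak, was 1333 in library 1 and 1082 in library 2 of H3K9Ac. In H3K27Ac it was 1180 and 1020, and in H3K4me3 it was 376.1 and 211.6. By the mean level A in the authors' deposited table, this peak ranked 5 of 14280 in H3K9Ac, 10 of 15147 in H3K27Ac and 43 of 13221 in H3K4me3. MIR205HG RNA was also abundant, with 47.53, 37.15 and 72.63 RPKM with IL-13 at 2, 6 and 24 hr. In the controls it had 51.6, 42.1 and 88.66 RPKM. All 3 values with IL-13 were below their controls, at most 0.29 lower on the log2 scale. The RefSeq promoter of MIR205HG (GRCh38.p14, chr1:209428570-209428869, plus strand, from 250 bases before to 50 after the start) held 1 CG, in capitals below. CG reads the same on both strands, at least 1 was found in 96% of 35116 promoters of this length, and their median number was 14.
MIR205HG promoter: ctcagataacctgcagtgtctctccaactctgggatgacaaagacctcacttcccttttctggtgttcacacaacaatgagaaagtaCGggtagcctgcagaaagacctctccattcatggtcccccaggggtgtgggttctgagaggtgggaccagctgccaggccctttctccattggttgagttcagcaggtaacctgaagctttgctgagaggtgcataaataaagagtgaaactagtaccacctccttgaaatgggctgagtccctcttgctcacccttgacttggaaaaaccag
For contrast, the promoter of MIR210HG, which contains the hypoxia-induced microRNA miR-210, held 44 CG (GRCh38.p14, chr11:568408-568707, minus strand). The stronger H3K9Ac peak there had a level of 71.51 in library 1 and 39.95 in library 2. Fewer CG than in the MIR205HG promoter were found in 3.96% of promoters, and fewer than in that of MIR210HG in 95.8%. These 2 promoters were picked by name, and a relation between CG number and peak level was not tested.
MIR210HG promoter: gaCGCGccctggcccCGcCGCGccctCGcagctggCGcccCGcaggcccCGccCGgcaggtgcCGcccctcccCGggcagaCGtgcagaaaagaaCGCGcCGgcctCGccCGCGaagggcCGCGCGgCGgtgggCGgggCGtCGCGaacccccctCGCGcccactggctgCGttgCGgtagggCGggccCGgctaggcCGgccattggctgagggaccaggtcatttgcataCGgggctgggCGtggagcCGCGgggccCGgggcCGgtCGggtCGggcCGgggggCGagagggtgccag

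The miR-200 family was marked at both of its clusters, and neither cluster contained the start of another gene in its main peaks. The cluster of MIR200B, MIR200A and MIR429 on chromosome 1 had an H3K27Ac level of 670.9 in library 1 and 670.9 in library 2. Its H3K9Ac levels were 648.1 and 621.7, and its H3K4me3 levels 190.7 and 174.2. MIR200C and MIR141 on chromosome 12 had H3K9Ac levels of 441.1 in library 1 and 456.7 in library 2, and H3K4me3 levels of 104.7 and 117. In both clusters the main peaks of the 3 marks differed by at most 1.34-fold. The clusters together cover the seeds AAUACUG of miR-200b, miR-200c and miR-429 and AACACUG of miR-200a and miR-141 printed above. MIR203, a restraint on p63 in skin, had 347.3 in library 1 and 298.2 in library 2 of H3K27Ac, and 24.93 and 22.94 in H3K4me3.

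Of 16 epithelial and squamous microRNAs found in the RNA tables, 12 had a marked start, several of them in a shared peak. Of all 1268 microRNA genes of at most 1000 bp, 35.6% were marked. MIR183 and MIR96, a sensory-organ and epithelial cluster, had 119.8 in library 1 and 88.95 in library 2 of H3K27Ac. MIR375 had no more than an H3K9Ac peak of 13.64 and 3.01. MIR31, MIR182, MIR184 and MIR365A had none. Here and below, a microRNA start without a peak can belong to a transcript whose promoter lies elsewhere and may be marked. MIR193A and MIR193B share the seed ACUGGCC and were marked at both loci. Their main H3K27Ac levels were 126.7 and 92.73 for MIR193A, and 104.3 and 57.88 for MIR193B.

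Of 16 microRNAs tied to inflammation, 13 had a marked start, against 35.6% of all 1268 microRNA genes of at most 1000 bp. Some of the 13 share a peak, so they are not separate regions. MIR21, which is raised in many inflamed and malignant epithelia, had H3K9Ac levels of 433.5 in library 1 and 367.1 in library 2, at no other gene's start. MIR135B had H3K27Ac levels of 249.9 and 204.4, and H3K4me3 levels of 25.81 and 14.03. The cluster of MIR23A, MIR27A and MIR24-2 had H3K9Ac levels of 252.5 and 210.8, and no H3K27Ac row. Its H3K9Ac peak was shared with the start of LOC284454. MIR146B, a brake on Toll-like receptor signalling, had H3K27Ac levels of 210.8 and 139.1, in a peak shared with the start of CUEDC2. MIR155, a microRNA of activated lymphocytes and macrophages, had an H3K27Ac peak of 7.97 and 2.01 alone. MIR221 and MIR222 counted as marked by a weak H3K27Ac peak that they share, of 2.95 in library 1 and 5.98 in library 2. MIR223, a myeloid microRNA, and MIR146A had none.

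The growth-related families split by locus. The cluster of MIR17 to MIR92A1 had H3K27Ac levels of 222.1 in library 1 and 141.5 in library 2. Its peak was shared with the start of its host MIR17HG, which had 4.11 RPKM with IL-13 and 3.77 RPKM in the control at 6 hr. The cluster of MIR106B, MIR93 and MIR25 lies in MCM7, a replication helicase subunit, with 295.2 RPKM with IL-13 and 303.3 RPKM in the control at 6 hr. Its H3K27Ac levels were 321.8 and 276.3, in a peak shared with the start of COPS6. The paralogous cluster of MIR106A on chromosome X had no marked start. Of the 8 loci with the seed AAAGUGC, 4 were therefore marked: MIR17, MIR20A, MIR106B and MIR93. Of the 7 loci with the seed AGCAGCA of miR-15 and miR-16, 5 were marked. Over all 1268 microRNAs, 35.6% were marked. MIR15B and MIR16-2 had H3K9Ac levels of 548.7 in library 1 and 512 in library 2. Their peak was shared with the starts of IFT80 and SMC4.

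Of the 14 loci with the let-7 seed GAGGUAG, 8 were marked. MIRLET7I had 721.6 in library 1 and 650.3 in library 2 of H3K27Ac, and MIRLET7E had 66.49 and 52.89. The MIRLET7I peak was shared with the start of C12orf61, and the MIRLET7E peak with that of LINC00085. The other 6 marked let-7 loci did not reach 30 in either library of any mark. Seeds of the primate-specific cluster on chromosome 19 and of embryonic stem cells contrasted with these: 0 of 11 loci with the seed AAGUGCU, MIR302A and MIR372 among them, were marked. Over all 1268 microRNAs the share was 35.6%.

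Of 14 microRNAs tied to p53 or cell stress, 8 had a marked start, several of them in a shared peak. Of all 1268 microRNA genes of at most 1000 bp, 35.6% were marked. MIR34B and MIR34C, targets of p53, had weak H3K27Ac, with 25.11 in library 1 and 12.04 in library 2. Their peak was shared with the starts of BTG4 and C11orf88, and their relative MIR34A had no peak. MIR22 had H3K27Ac levels of 123.2 and 102.2 at its own start, and its host MIR22HG had 3.45 RPKM with IL-13 and 3.90 RPKM in the control at 6 hr. MIR192 and MIR194-2, an intestinal and hepatic pair, had H3K27Ac levels of 25.02 and 28.94. No member of the miR-29 family, which targets collagens, had a marked start.

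Most other microRNA peaks of the highest levels were shared with the start of a protein-coding gene. MIR4712, beside GABPB1, had 1197 in library 1 and 1064 in library 2 of H3K27Ac, and 992.6 and 999.5 of H3K9Ac. MIR1248 lies in EIF4A2, a translation helicase, with 99.93 RPKM with IL-13 and 91.84 RPKM in the control at 6 hr, and its H3K9Ac levels were 792.4 and 729.1. MIR1292 in the nucleolar gene NOP56 and MIR636 in the splicing factor gene SRSF2 had H3K4me3 levels of 445.7 and 347.3, and of 281.1 and 316.3. In H3K27Ac, MIR548H4 at ANP32A had 900.8 and 999.5, and MIR4740 at BAHCC1 had 747 and 840.4. MIR196A2 was an exception, since it lies in the HOXC region with no other start in its peak, at H3K9Ac levels of 916.5 and 613.1. The H3K4me3 peak of MIR3648 and MIR3687, described below, also held no other gene's start. All of these stayed under 2-fold between the libraries.

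**Figure D3:**
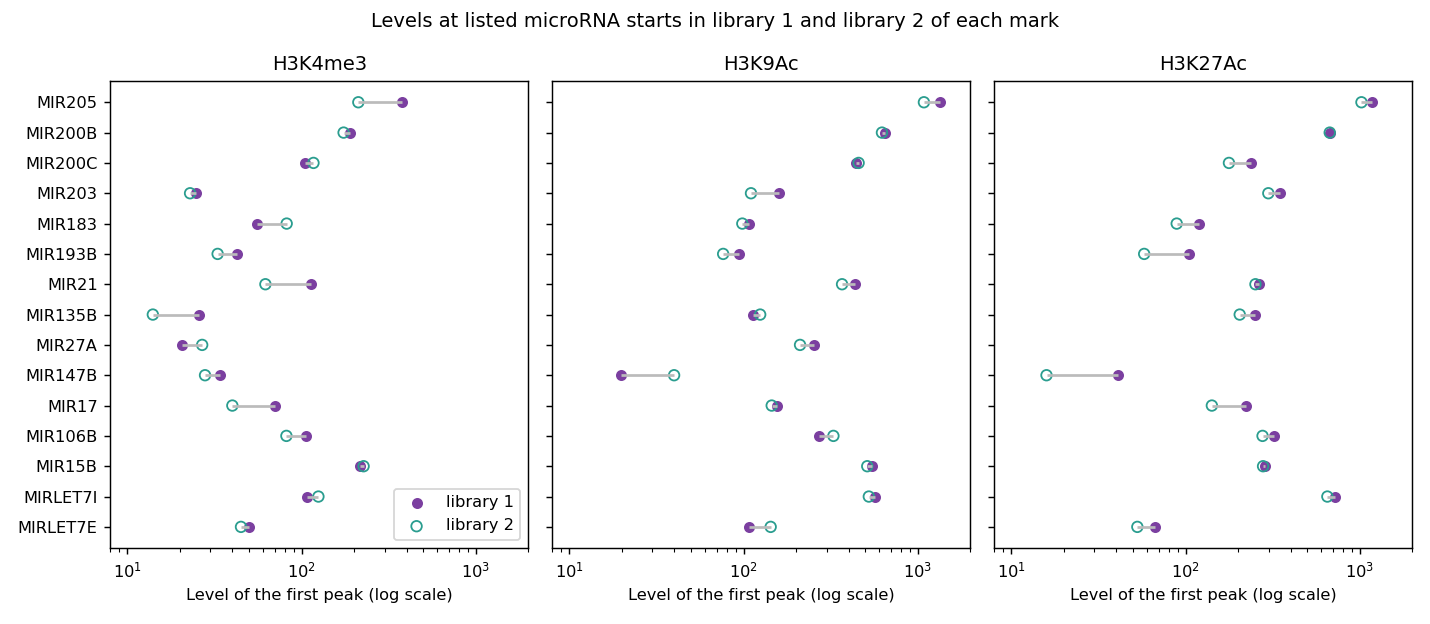
The level of the first-listed peak at 15 microRNA starts (y axis) is shown on a log axis for library 1 (filled) and library 2 (open) of each mark. MIR205 has the highest library 1 level of each mark among them, with 376.1 and 211.6 in H3K4me3, and MIR147B shows the widest gap in H3K27Ac, with 41.21 and 15.94. MIR27A had no H3K27Ac row.

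At 23 microRNA starts, all 3 marks reached a level of 30 in the higher library in peaks that no other gene's start shared. For 18 of them every peak of every mark stayed under 2-fold between the libraries. MIR21 and MIR193B passed it in weaker peaks, given below, and MIR148A, MIR339 and MIR5087 in the peak of the highest level of at least 1 mark. H3K9Ac reached 100 in both libraries at 14 of the 23, and H3K4me3 at 6. MIR3648 and MIR3687 had the highest H3K4me3 level, with 424.6 in library 1 and 430.5 in library 2. Both lie in sequence of the ribosomal RNA repeat, whose many copies can share reads, so their levels are uncertain. MIR130A, linked to blood vessel growth, had H3K9Ac levels of 162.6 and 216, and MIR9-1, a neural microRNA, had 87.43 and 113.8. MIR148A was past 2-fold in all 3 marks, with 15.67 in library 1 and 37.01 in library 2 in 1 of its H3K4me3 peaks. Its H3K9Ac levels were 49.52 and 24.76 and its H3K27Ac levels 50.56 and 18.64, both higher in library 1.

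Between the libraries, microRNA peaks that reached a level of 30 differed about as often as peaks in general, and somewhat more often in H3K9Ac and H3K27Ac. A peak counted as differing when the libraries were at least 2-fold apart and the higher one reached a level of 30. In H3K4me3, 24 of 228 microRNA peaks that reached this level differed, 10.5%, against 10.8% of all 9906 peaks. In H3K9Ac 27 of 292 differed, 9.25%, against 7.39% of all 11968 peaks. In H3K27Ac 37 of 338 differed, 10.9%, against 8.75% of all 12440 peaks. These shares lie near the background, and with 1 library per group they have no replicate check. Library 1 was higher in 16 H3K4me3, 15 H3K9Ac and 20 H3K27Ac peaks, and library 2 in 8, 12 and 17. With M centred on the median of all peaks, the H3K9Ac split was 11 higher in library 1 and 16 higher in library 2.

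The H3K27Ac differences lay mainly in peaks at microRNA starts alone, whereas those of H3K9Ac and H3K4me3 lay mainly in shared peaks. Of 118 H3K27Ac peaks of level 30 at microRNA starts alone, 24 differed, 20.3%. Of 220 peaks shared with another gene's start, 13 differed, 5.91%. Peaks at no other start were also weaker, with a median of 38.2 in the higher library, against 148 for shared peaks. Weak peaks differed more often throughout: of all H3K27Ac peaks, 19.6% differed between levels of 30 and 100, and 2.39% from 100 up. In these bands, microRNA peaks at no other start differed in 33.9% of 62 and 5.36% of 56. The shared microRNA peaks differed in 17.9% of 56 and 1.83% of 164. In H3K9Ac, 7 of 66 peaks at no other start differed, 10.6%, against 20 of 226 shared peaks, 8.85%. By band these were 21.9% of 32 and 0.0% of 34, against 22.4% of 76 and 2.0% of 150. In H3K4me3, 5 of 29 peaks at no other start differed, 17.2%, against 19 of 199 shared peaks, 9.55%. By band these were 16.7% of 18 and 18.2% of 11, against 11.7% of 120 and 6.33% of 79.

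Among microRNA peaks, MIR3973 had the H3K27Ac difference with the highest −log10 p in the authors' deposited table. It lies in LDLRAD3, a gene of the LDL receptor class A domain group, 66036 bp from that gene's start, on chromosome 11 at position 36031648. One H3K27Ac peak there had a level of 18 in library 1 and 174.9 in library 2, a 9.71-fold difference, and a neighbouring peak had 13 and 105.4. In the authors' deposited table, the first ranked 4 of 15147 peaks by −log10 p. LDLRAD3 RNA had 14.08 RPKM with IL-13 and 12.15 RPKM in the control at 6 hr, 1.16-fold apart.

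MIR125B2, of the conserved miR-125 family, had an H3K27Ac level of 14.03 in library 1 and 86.22 in library 2. It lies in LINC00478, which was at 0 RPKM in all 6 RNA libraries. MIR181A2 and MIR181B2, which share the seed ACAUUCA, differed the other way, with 48.5 and 8. They lie in MIR181A2HG, which had 0.18 RPKM with IL-13 and 0.63 RPKM in the control at 6 hr, under the 1 RPKM that was required of the higher library. MIR3122, in the cell-cycle gene DTL, had 51.63 and 5.17, and MIR296 with MIR298, near GNAS-AS1, had 23.02 and 94.03. MIR1178, in the citron kinase gene CIT, had 7.97 and 33.01 beside a stronger peak of 41.21 and 21.93. MIR5692B had 2.95 and 32.9 on chromosome 12 in the files, whereas the RefSeq table places it on chromosome 21. Its place is therefore uncertain, as is that of MIR4426, the other 1 of 384 marked starts compared that lay on different chromosomes.

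In H3K9Ac, the largest differences were at MIR4516, with 42.37 in library 1 and 2.35 in library 2, and at MIR3180-5, with 39.53 and 2.52. Both lie within 2779 bp of the start of PKD1, the polycystin gene, which has near-identical copies that can share reads. MIR1915, in C10orf114, had 48.5 and 13 beside a stronger peak of 372.2 and 315.2. MIR4434, in the trafficking gene AFTPH, had 87.43 and 26.91 beside a stronger peak of 235.6 and 205.1. MIR1288, far inside PIGL, an enzyme gene of the GPI anchor pathway, had 10.63 and 38.05. MIR210 had 16.74 and 57.08 in a second H3K9Ac peak, opposite in direction to its stronger peak, 71.51 and 39.95. MIR193B likewise had 9.65 and 33.13 beside a stronger peak of 94.68 and 76.37. MIR193A had 49.01 and 16.74.

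In H3K4me3, MIR4453, which lies in DKFZP434I0714, had 77.71 in library 1 and 9.71 in library 2, an 8.0-fold difference. That peak was shared with the starts of DKFZP434I0714 and of FBXW7, a ubiquitin ligase subunit that degrades cyclin E and MYC. A stronger peak at the same starts had 113.4 in library 1 and 150.6 in library 2, 1.33-fold apart. MIR4254, in the adhesion receptor gene BAI2, had 4.04 and 32.11. MIR3661, opposite to the phosphatase gene PPP2CA, had 36.63 and 6 beside a stronger peak of 98.36 and 139.1. MIR4690, MIR4779 and MIR5087 had 35.14 to 38.59 in library 1 and 12 to 14.03 in library 2, and MIR4779 had a stronger peak of 71.01 and 43.71. MIR1244, inside the prothymosin gene PTMA, had 24 and 94.03 in 1 peak and 233.1 and 350.9 in a stronger neighbour. The 3 copies of MIR1244 are near-identical to each other and to PTMA copies, so their peaks and reads are uncertain.

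Of 84 microRNA starts with a differing peak in any mark, 77 differed in 1 mark, 6 in 2 and 1, MIR148A, in all 3. The same split was not taken over all starts, so it is not read as a trait of microRNA starts. MIR4999, beside RAB11B, was higher in library 2 in both acetylation marks, with 20.75 in library 1 and 55.91 in library 2 of H3K9Ac, and 27 and 77.98 of H3K27Ac. MIR484 differed in both, in opposite directions, with 52.71 and 24.93 of H3K9Ac and 27.19 and 62.03 of H3K27Ac. At these starts, and at MIR21, the differing peaks were weaker neighbours of a main peak that stayed under 2-fold. MIR21 had 51.27 and 22.01 in a second H3K4me3 peak beside 113.4 and 62.03 in its main one, and 38.19 and 90.82 in a second H3K27Ac peak beside 264.1 and 251.6. MIR147B differed in H3K9Ac, with 19.7 in library 1 and 39.95 in library 2, and in H3K27Ac, with 41.21 and 15.94. MIR378D2 was higher in library 1 in both acetylation marks. Since the treatment of each library is not given, opposite signs in different marks cannot be read as opposite changes. MIR147B lies in C15orf48, known as a gene of normal esophageal mucosa, which had 9.23 RPKM with IL-13 and 13.86 RPKM in the control at 6 hr. At 24 hr it had 8.96 and 17.06 RPKM, 0.92 lower with IL-13 on the log2 scale and short of 2-fold.

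**Figure D4:**
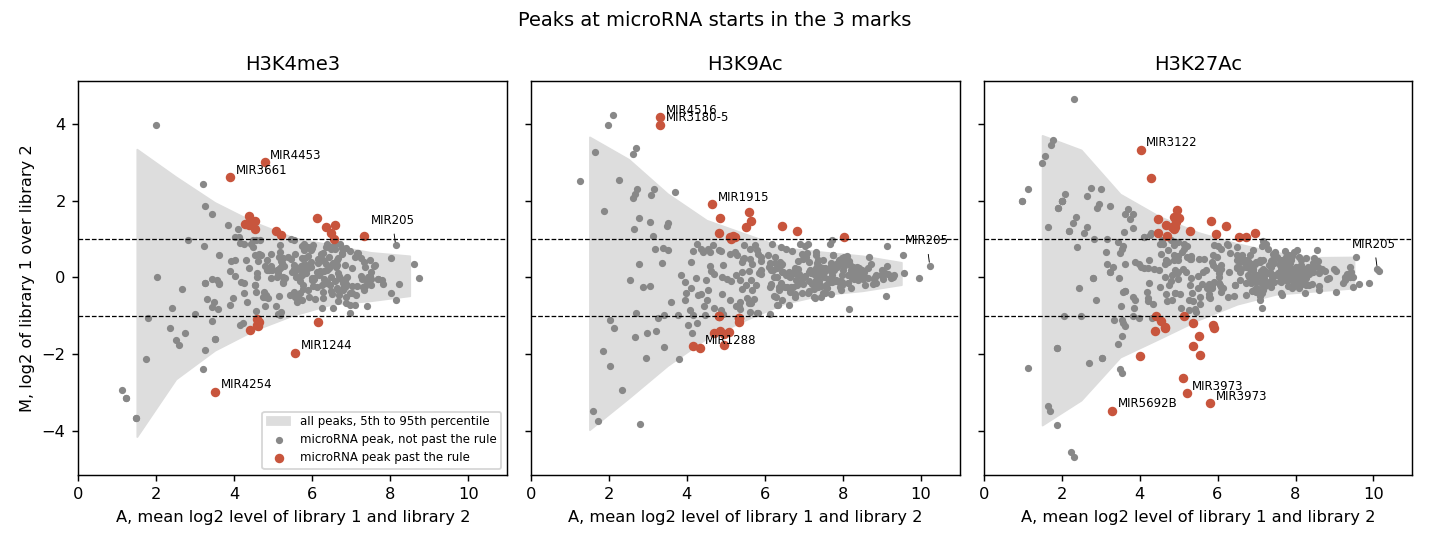
M, the log2 ratio of library 1 over library 2 (y axis), is shown against A, the mean log2 level (x axis), for each microRNA peak of the 3 marks. Red points passed the 2-fold rule (24, 27 and 37 peaks), dashed lines mark 2-fold, the grey band holds all peaks from the 5th to the 95th percentile, and MIR205 lies at the right inside the dashed lines.

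RNA of the microRNAs themselves was too sparse to compare. Of the 458 marked symbols, 360 were at 0 RPKM in all 6 libraries and 17 were above 0 in all 6. MIR205 had 0.66, 1.09 and 1.51 RPKM with IL-13 at 2, 6 and 24 hr, and 1.67, 1.49 and 0.85 RPKM in the controls, with no steady direction. The genes that contain them were read in their place. RPKM tables hold no read counts, so the depth is unknown, and without stated strand use in the counting, a microRNA in an opposite-strand gene cannot be told apart from it. In bulk RNA, fewer cells of a type and less RNA per cell cannot be told apart.

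Among the 258 genes that contain a marked microRNA start, few differed with IL-13. A gene counted as differing at 2-fold or more on log2(RPKM + 0.1) with at least 1 RPKM in the higher library. This held for 2 of 209 genes at 2 hr, 0.957%, against 1.0% of all genes. At 6 hr it held for 1 of 206, 0.485%, against 1.07% of all genes, and at 24 hr for 5 of 209, 2.39%, against 2.16% of all genes. The shares lie near the background at 2 and 24 hr, and each time has 1 library per group and no replicate check.

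LIFR, the receptor subunit for leukemia inhibitory factor, which contains MIR3650, was past 2-fold at each time. It had 4.83, 7.18 and 22.05 RPKM with IL-13 at 2, 6 and 24 hr, and 1.74, 1.59 and 7.08 RPKM in the controls. The IL-13 library was the higher at each time, by 2.78-fold, 4.52-fold and 3.11-fold. In the authors' deposited table, its adjusted p was 9.07e-06 at 6 hr and 4.78e-11 at 24 hr, with 1 library per group. Peaks at MIR3650, all shared with a start of LIFR, had H3K27Ac levels of 107.3 in library 1 and 185.5 in library 2, and H3K4me3 levels of 63.12 and 65.8. MIR3650 itself lies 37844 bp from the LIFR start of the RNA tables, on chromosome 5 at position 38557663.

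IGF2, the fetal growth factor, which contains MIR483, had 52.37, 28.93 and 21.65 RPKM with IL-13 at 2, 6 and 24 hr, and 55.59, 33.97 and 45.96 RPKM in the controls. It was past 2-fold at 24 hr alone, where it was 1.08 lower with IL-13 on the log2 scale. The authors' deposited table gives an adjusted p of 0.0001 there. PROC, the anticoagulant protein C, contains MIR4783 on the opposite strand and had 2.16 RPKM with IL-13 and 5.55 RPKM in the control at 24 hr. ANKRD30BL, which contains MIR663B, had 0.3 RPKM with IL-13 and 1.035 RPKM in the control at 24 hr, near the minimum. C1orf61, which contains MIR9-1, was higher with IL-13 at 24 hr, with 1.055 RPKM against 0.25 RPKM in the control, but had 1.44 RPKM with IL-13 and 1.98 RPKM in the control at 6 hr. MGC16121, which contains MIR503, had 1.11 RPKM with IL-13 and 0.49 RPKM in the control at 2 hr. It was short of 2-fold with a pseudocount of 1 and against the control at 6 hr.

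The authors' deposited table also lists 2 containing genes below 2-fold with an adjusted p of less than 0.05. RBMS1, an RNA-binding protein gene that contains MIR4785, had 32.01 RPKM with IL-13 and 20.73 RPKM in the control at 6 hr. The authors' deposited table gives an adjusted p of 0.0354 for it. GPC1, the cell-surface proteoglycan glypican, which contains MIR149, had 68.47 RPKM with IL-13 and 122 RPKM in the control at 24 hr. Its adjusted p in the authors' deposited table was 0.0271.

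**Figure D5:**
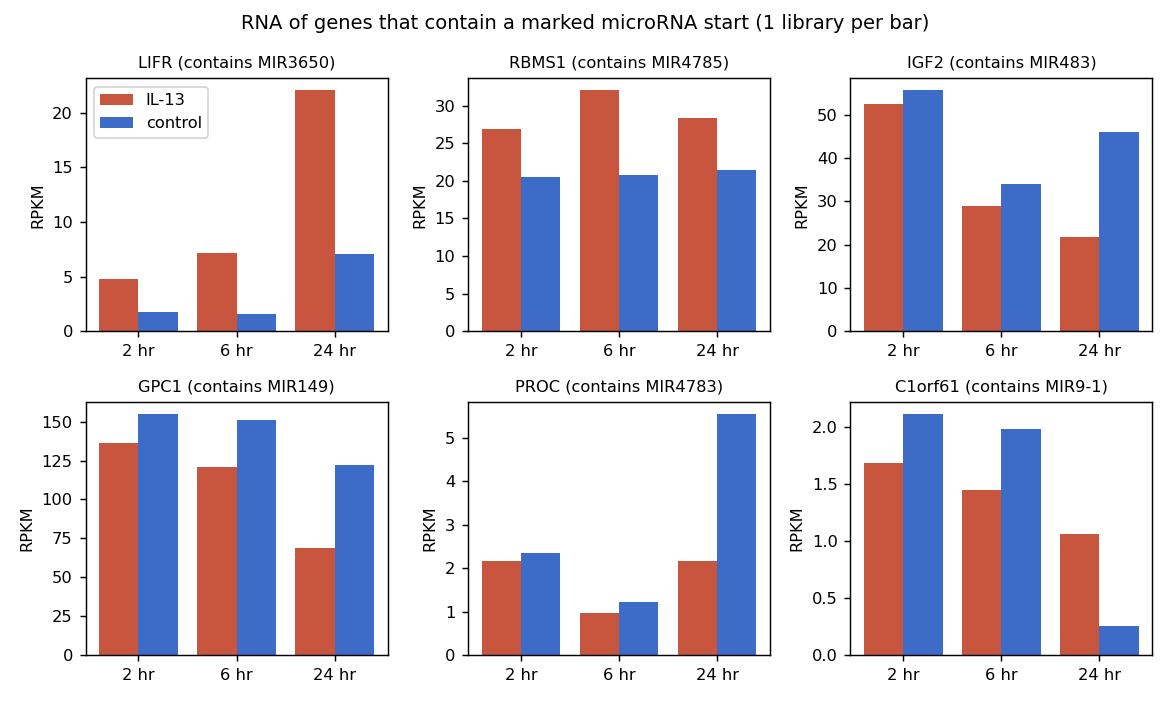
RPKM (y axis, from 0) is shown for 6 genes that contain a marked microRNA start, at 2, 6 and 24 hr (x axis), with the IL-13 library left of the control library and 1 library per bar. LIFR was higher with IL-13 at each time (22.05 and 7.08 RPKM at 24 hr), and IGF2, GPC1 and PROC were lower at 24 hr.

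For a difference held in common by 2, 6 and 24 hr, limma was fitted to log2(RPKM + 0.1), with time as a term. With Benjamini-Hochberg adjustment over 11953 genes, 0 of 208 containing genes passed an adjusted p of 0.05, against 0.0% of all genes. At an unadjusted p under 0.05 there were 31 containing genes, 14.9%, against 16.9% of all genes, and limma-trend also called 0 containing genes. LIFR had the smallest limma p among them, with a log2 change of 1.72 ± 0.15 (SE) and an adjusted p of 0.14, higher with IL-13 at 3 of 3 times. RBMS1 had 0.47 ± 0.07 and an adjusted p of 0.168 in limma, and RBM47, an RNA-editing cofactor gene that contains MIR4802, had 0.58 ± 0.09 and 0.177. C15orf48 had −0.60 ± 0.13 and an adjusted p of 0.2 in limma, lower with IL-13 at all 3 times. Nothing says that the libraries came from separate cultures, and these p-values measure the spread between times.

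The genes that make and use microRNAs stayed within 2-fold. Of 33 such genes, 31 reached 1 RPKM, and 0 were past 2-fold at 2, 6 or 24 hr, with log2 changes between −0.35 and 0.47. Of all genes, 1.0%, 1.07% and 2.16% were past 2-fold at these times, so 0 of 31 lies near the background. DICER1, which cuts the hairpin, had 16.98, 17.16 and 10.81 RPKM with IL-13 and 13.22, 13.92 and 10.33 RPKM in the controls. DROSHA, which cuts the primary transcript, had 16.3 RPKM with IL-13 and 16.64 RPKM in the control at 6 hr. XPO5, the exporter of hairpins, had 33.69 and 32.18 RPKM, and EIF2C2, which encodes Argonaute 2, had 20.25 and 20.82 RPKM. XRN1, a 5′ exonuclease, had the largest change, 3.39 RPKM with IL-13 and 2.42 RPKM in the control at 6 hr. LIN28A and LIN28B, which block let-7 maturation, were the 2 below 1 RPKM, and LIN28B was listed at 0 throughout.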

How the data were processed

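RNA was measured in 6 libraries and chromatin in 6, with 1 input library not used here. Per the submitters' processing notes, RNA reads went through TopHat2 2.0.9, chromatin reads through Bowtie 1.0.0 and MACS2 2.0.10.20130712, and DESeq was used in both, on hg19. The authors deposited RPKM per gene with log2 ratios and adjusted p-values, per the file headers. For each mark, the authors deposited rescaled log2 values per peak and start, M (library 1 over library 2) and A, with −log10 p, per the file headers. Another 6 columns of values per library were not used, since their names match no sample.

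Levels in library 1 and library 2 were computed here as 2 to the power of A plus or minus M divided by 2, and were not divided by peak width. Rows of identical values within 20 kb were counted as 1 peak. Plus-strand starts were shifted by 1 base, after which 453 of 453 starts that could be compared equalled those of the RNA tables. A microRNA was placed in a gene whose bounds contain its start. With 1 library per group, differences were called by size alone: 2-fold with a level of at least 30, or 2-fold on log2(RPKM + 0.1) with at least 1 RPKM. No depth or counting interval is given, because RPKM and rescaled levels hold no counts and the 6 columns of the peak tables that do hold reads per library were not used.

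limma 3.58.1 (R 4.3.3) was fitted over the 6 RNA libraries with time and treatment as terms, on genes of at least 1 RPKM in 3 libraries. Its code was checked on simulated data with 1 spread for all genes, independent libraries and the same planted change at each time. Those settings differ from the real data, so the check does not tell how the fit performs on them. The limma fit takes each time as an independent pair, which the identical values in the 2 and 6 hr controls put in doubt. The design had been written for either counts or RPKM, and RPKM was found. Named microRNAs were the 8 with the largest difference past the rule and the 5 of highest A per mark, and members of 5 microRNA lists; 2 of these peaks are not reported here. Named genes were containing and pathway genes past the rule, and any named for the authors' adjusted p, the limma p or the peak beside them was chosen after its values were seen. Other microRNAs with peaks of all 3 marks, shared seeds or differences in several marks were also chosen after their values were seen. Members and lists were chosen with earlier results of these data known. Mature sequences and promoters came from RefSeq (GRCh38.p14) and were matched by symbol, with no conversion of coordinates. Promoters were found for 180 of 258 containing genes, under 80%, so a check of CG content over them is void.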

Additional observations from a re-analysis of the deposited data

Results flagged for a closer look

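C1orf61, the gene around MIR9-1, moved in opposite directions at different times. Its log2 change with IL-13 was 1.72 at 24 hr and −0.43 at 6 hr, and this difference between times was not tested. It had 1.055 RPKM with IL-13 and 0.25 RPKM in the control at 24 hr, close to the minimum of 1 RPKM.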

How the results depend on the processing

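Counts of differing peaks depended on the minimum level and on the authors' p, and less on scaling. With a minimum level of 10 there were 43 microRNA peaks past 2-fold in H3K4me3, 56 in H3K9Ac and 75 in H3K27Ac, and with no minimum 50, 65 and 100. In these counts, 15.2%, 16.0% and 18.1% of microRNA peaks differed at a minimum of 10, against 16.2%, 11.8% and 13.8% of all peaks. With no minimum the shares were 17.0%, 17.8% and 22.4%, against 17.4%, 13.2% and 15.2% of all peaks. With the authors' −log10 p of at least 5 added, 9, 8 and 13 remained. These were 3.95%, 2.74% and 3.85% of microRNA peaks, against 2.58%, 1.87% and 2.54% of all peaks. In H3K9Ac and H3K27Ac the microRNA share was above that of all peaks at each of these settings, with no replicate check. Of the peaks that remained with the authors' p, 7 of 8 in H3K9Ac were higher in library 1 and 9 of 13 in H3K27Ac in library 2. For containing genes, a pseudocount of 1 gave 1 at 2 hr and 3 at 24 hr. A minimum of 0.5 RPKM gave 4, 3 and 8 at 2, 6 and 24 hr, and no minimum gave 7, 3 and 9. Among those added at 2 hr were SYT1, SYN1 and PTPRN, neuronal genes that were lower with IL-13 than in the control that held brain transcripts. With the control at 6 hr in the place of the control at 2 hr, chosen after seeing the data, 8 containing genes were past 2-fold at 2 hr, 0 of them lower. The cause of these changes was not tested. No share of all genes was taken at these settings, so the counts of containing genes have no background beside them. LIFR was past 2-fold at each time under every setting tried. The limma count for containing genes was 0 under each alternative, with a smallest adjusted p between 0.0505 and 0.418, and the count of microRNA pathway genes was 0 throughout. Without the 2 hr, 6 hr or 24 hr pair, the limma count ran from 0 to 0. In all, 22 of 40 alternative values stayed within 1.5 times, and these include every limma and pathway count, where 0 was set against 0. The other 18 moved, all of them counts of peaks or of containing genes past 2-fold. No paired analysis was possible because the groups share 1 replicate number, apart from the limma fit, which pairs IL-13 with control by time. Peaks under a level of 30, and microRNAs of few reads, limit what these data can show.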
